A study of Mus musculus with 6 samples.

Results

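The genes described here are 10 targets of the hypoxia-inducible factors (HIF) that do not encode glycolytic enzymes, namely Adm, Vegfa, Bnip3, Bnip3l, Pdk1, Ddit4, Ndrg1, P4ha1, Kdm3a and Ankrd37. They were chosen by gene symbol, with earlier results of these data known, and all 10 were found among the 23282 genes of the table. They were measured in primary hepatocytes of C57BL6/N mice, with 3 untreated libraries (control) and 3 libraries of cells treated with recombinant IL-1β protein for 24 h. The cells were freshly isolated by collagenase perfusion and plated for 3 h before treatment, and the labels name no genetic change in either group. The series' design text speaks of 2 samples per group but numbers 3 in each, and 3 libraries per group are labelled and in the table. The sample descriptions do not give the age of the mice, the number of mice behind the 3 libraries of a group or the IL-1β dose of these cultures, so p-values measure the spread between these libraries, which may be technical.

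HIF is a pair of an oxygen-regulated alpha subunit (Hif1a or Epas1) and the stable beta subunit Arnt. In oxygenated cells, prolyl hydroxylases mark the alpha subunit for VHL-dependent degradation, and in hypoxia the pair accumulates and binds short DNA elements with the core ACGTG or GCGTG. Inflammatory cytokines can also raise Hif1a mRNA through NF-κB. Besides glycolysis, HIF targets serve blood supply (Adm, Vegfa), removal of mitochondria (Bnip3, Bnip3l), restraint of pyruvate oxidation and growth signaling (Pdk1, Ddit4, Ndrg1), collagen and histone modification by oxygen-using enzymes (P4ha1, Kdm3a) and the ankyrin repeat protein Ankrd37.

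IL-1β raised 4 of the 10 genes and lowered none. Adm rose most (4.97-fold, 95% interval 3.93 to 6.28), followed by Ndrg1 (1.66-fold), Vegfa (1.43-fold) and Bnip3 (1.37-fold). Pdk1, Bnip3l, Ddit4, Kdm3a and P4ha1 did not pass the test, and Ankrd37 had too few reads to be tested. With edgeR's quasi-likelihood test and Benjamini-Hochberg adjustment over 11657 genes, 4 of the 9 members tested were higher and 0 lower at an adjusted p below 0.05, where 6.97% of all genes tested were called higher and 6.44% lower. At an unadjusted p below 0.05, 5 members were higher and 0 lower, and DESeq2 called 4 higher and 0 lower. The median log2 fold change of the 9 members was 0.46, against -0.0018 over all genes tested.

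The libraries held 9538741 to 11105408 counts, and 3 counts, taken as the limit of detection, were 0.269 to 0.321 CPM (counts scaled to the TMM-normalized library size, the unit of all levels here). These limits cover counting error only. The ribosomal RNA precursor Rn45s took 11.7% to 14.2% of the counts. The hepatocyte markers differed widely in level. Alb was at 16200 ± 516 CPM and Cps1 at 2.65 ± 0.76 CPM in control cells (SD, n = 3). Ass1 and Pck1 had too few counts to be tested. Of the 10 hepatocyte markers tested, 8 were lower after IL-1β and 0 higher (8 and 0 at an unadjusted p below 0.05, 7 and 0 with DESeq2). This was 80% called, against 13.4% of all genes tested. The summed level of the hepatocyte markers ranged from 35701 to 36485 CPM in control and from 29923 to 31974 CPM in IL-1β libraries. In bulk samples, fewer cells of a type and less RNA of these genes per cell cannot be told apart.

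The DNA just upstream of 5 of these genes is shown because they span the outcomes, with Adm, Vegfa and Bnip3 called higher and Pdk1 and P4ha1 not called. Each sequence holds the 250 bases before the start site on the gene's own strand, from RefSeq on GRCm38.p6, at chr7:110627407-110627656 (plus strand) for Adm, chr17:46032378-46032627 (minus) for Vegfa, chr7:138909507-138909756 (minus) for Bnip3, chr2:71872974-71873223 (plus) for Pdk1 and chr10:59323046-59323295 (plus) for P4ha1. Capitals mark the HIF core ACGTG or GCGTG on either strand, so that CACGT and CACGC are the same cores read from the other strand.
Adm: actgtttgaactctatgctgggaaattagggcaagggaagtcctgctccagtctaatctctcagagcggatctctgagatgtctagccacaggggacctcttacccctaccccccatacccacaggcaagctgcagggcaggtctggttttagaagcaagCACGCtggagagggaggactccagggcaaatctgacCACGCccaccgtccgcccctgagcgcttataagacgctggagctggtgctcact
Vegfa: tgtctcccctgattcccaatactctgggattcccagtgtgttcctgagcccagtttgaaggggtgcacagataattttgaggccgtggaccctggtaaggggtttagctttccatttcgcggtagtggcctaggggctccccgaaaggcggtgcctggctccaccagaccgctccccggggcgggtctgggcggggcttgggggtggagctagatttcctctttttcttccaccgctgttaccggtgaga
Bnip3: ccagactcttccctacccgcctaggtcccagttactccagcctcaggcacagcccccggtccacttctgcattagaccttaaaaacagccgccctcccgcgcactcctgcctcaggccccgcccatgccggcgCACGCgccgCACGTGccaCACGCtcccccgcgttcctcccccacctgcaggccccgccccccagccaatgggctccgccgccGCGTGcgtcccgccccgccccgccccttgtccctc
Pdk1: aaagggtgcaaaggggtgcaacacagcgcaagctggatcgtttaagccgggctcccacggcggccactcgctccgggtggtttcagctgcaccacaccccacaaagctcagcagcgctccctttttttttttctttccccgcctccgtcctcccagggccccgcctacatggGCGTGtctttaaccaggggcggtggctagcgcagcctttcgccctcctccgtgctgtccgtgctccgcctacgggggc
P4ha1: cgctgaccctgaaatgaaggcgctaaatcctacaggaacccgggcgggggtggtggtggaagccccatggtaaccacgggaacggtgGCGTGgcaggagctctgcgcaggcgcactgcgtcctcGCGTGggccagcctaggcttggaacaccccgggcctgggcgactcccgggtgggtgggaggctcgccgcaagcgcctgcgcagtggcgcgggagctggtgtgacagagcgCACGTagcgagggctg

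In windows of 300 bases that add the 50 bases from the start site on, 8 of the 10 genes had an entry, and Bnip3l and Ndrg1 had none. Vegfa and Pdk1 had 2 entries each and Kdm3a had 3. Only the most upstream start of each gene was used, so other annotated starts were not read. A core on either strand was found in 7 of these 8, with 5 cores in Bnip3, 4 in Ankrd37, 3 in P4ha1, 2 each in Adm, Pdk1 and Ddit4, 1 in Kdm3a and 0 in Vegfa. The second core of Pdk1 crosses the start site and is not within the printed bases. In Bnip3, the 2 overlapping ACGTG cores form a palindrome, CACGTG, that starts 108 bases before the start site and is the E-box of other factors as well. Such cores are common, since 63.9% of the 9175 windows of tested genes and 43.8% of all 27025 windows held at least 1. Of the genes called higher, Bnip3 had 5 cores, Adm 2 and Vegfa 0. Of those not called, P4ha1 had 3, Pdk1 and Ddit4 2 each and Kdm3a 1. The part of these cores in the response was not tested. A match is a string of letters and not a bound site, and no match says only that these letters are not in the window.

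Adm encodes adrenomedullin, a secreted vasodilator peptide, and lies on chromosome 7 from 110627669 to 110629819 (mm10). Its level was 5.07, 7.43 and 8.06 CPM in control replicates 1 to 3 and 30.7, 33.5 and 37.8 CPM in IL-1β replicates 1 to 3. Every IL-1β library was far above every control. The log2 fold change was 2.31 (standard error 0.16, adjusted p = 6.4e-11 from edgeR), the 73rd largest increase of the 11657 genes tested, and it stayed between 2.14 and 2.44 with each library left out in turn. Adrenomedullin receptors pair Calcrl with Ramp2 or Ramp3. Calcrl was at 5.77 ± 0.66 CPM in control and 6.39 ± 0.34 CPM after IL-1β (SD, n = 3 per group). Ramp2 had 17, 16 and 7 counts in the controls and 11, 2 and 2 after IL-1β, so the groups overlapped (log2 fold change -1.31, standard error 0.67, edgeR adjusted p = 0.248). Ramp3 had 4, 1 and 0 against 0, 4 and 3 counts, too few to be tested.

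Vegfa encodes vascular endothelial growth factor A, the main angiogenic signal, and lies on chromosome 17 from 46016993 to 46032377 on the minus strand. It was at 46.4, 46.6 and 40.4 CPM in the controls and at 59.9, 58.2 and 72.2 CPM after IL-1β. The groups did not overlap, and IL-1β replicate 3 stood above the other treated libraries. The log2 fold change was 0.51 (standard error 0.10, adjusted p = 8.2e-04 from edgeR), and 0.41 (adjusted p = 0.0191) without IL-1β replicate 3. Among 10 tested relatives and receptors of adrenomedullin and VEGF, 1 was higher and 2 lower (30% called, against 13.4% of all genes tested). Vegfc, the lymphatic growth factor, differed by 0.92 on the log2 scale (edgeR adjusted p = 0.048), and the VEGF receptor genes Kdr and Flt4 fell by 1.49 and 1.23 on the log2 scale (adjusted p of 0.00511 and 8.2e-04 from edgeR). Kdr is also an endothelial marker, and 3 of 9 tested markers of that list, Kdr among them, were lower. Which cells the falls of Kdr and Flt4 came from was not tested. The call of Vegfc was lost in 8 of 13 alternative fits, with adjusted p up to 0.174. Vegfb, another ligand, was at 91.9 ± 5.19 CPM (SD, n = 3) in control and 92.4 ± 6.97 CPM (SD, n = 3) after IL-1β.

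**Figure D1:**
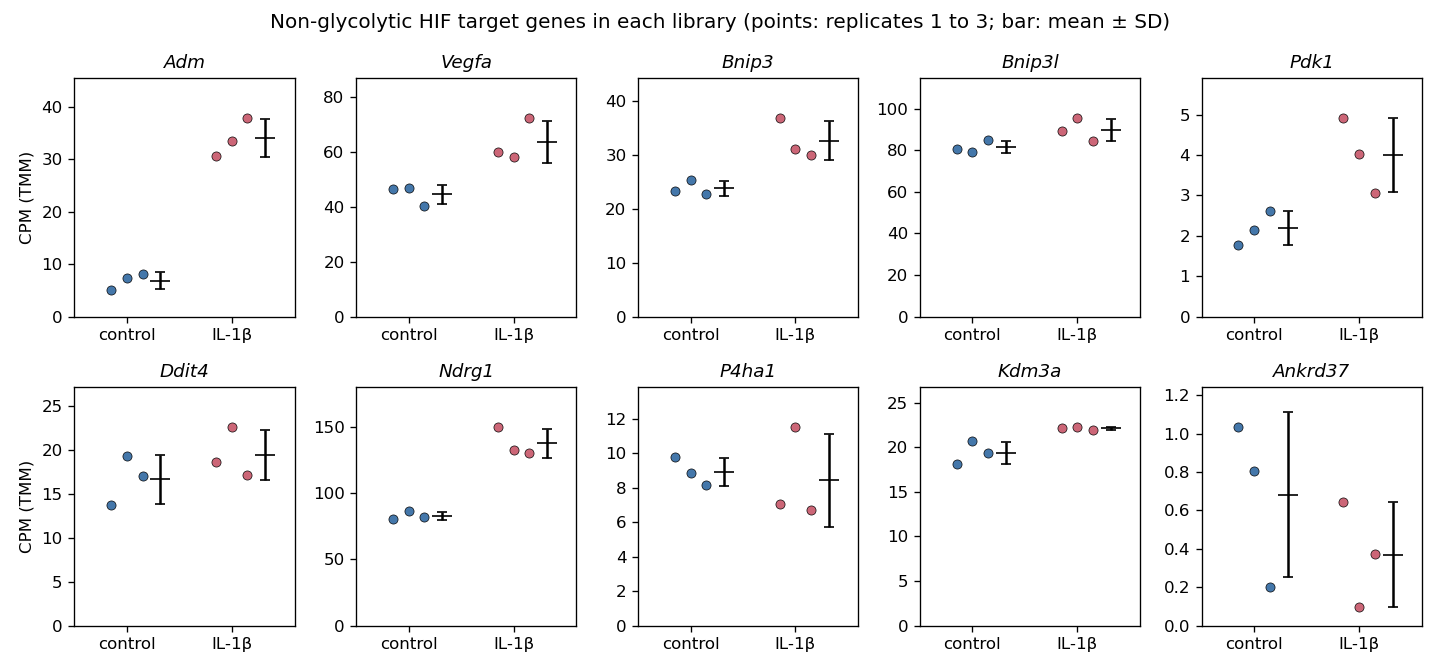
Normalized level (CPM, linear axis from 0) of each of the 10 genes in the 3 control (blue) and 3 IL-1β (red) libraries, as points in the order of the replicate numbers, with mean ± SD beside them. The groups are far apart for Adm (5.07 to 8.06 against 30.7 to 37.8 CPM) and overlap for P4ha1, Ddit4, Bnip3l and Ankrd37.

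Bnip3 and Bnip3l encode paralogous outer mitochondrial membrane proteins that recruit the autophagy machinery to mitochondria. Bnip3 (chromosome 7, 138890836 to 138909506, minus strand) was at 23.3, 25.3 and 22.8 CPM in the controls and at 36.9, 31.2 and 30.03 CPM after IL-1β, with no overlap. Its log2 fold change was 0.46 (standard error 0.12, adjusted p = 0.0111 from edgeR), and the call was lost without IL-1β replicate 1, the highest library (0.37, adjusted p = 0.0906). Bnip3l (chromosome 14, 66985240 to 67008877, minus strand) was at 80.7, 79.0 and 84.7 CPM in the controls and at 89.1, 95.5 and 84.7 CPM after IL-1β. The lowest treated library was level with the highest control, and the log2 fold change of 0.14 had an interval from -0.029 to 0.31 (adjusted p = 0.325 from edgeR).

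The balance between these paralogs within a library does not depend on scaling. The log2 ratio of Bnip3 to Bnip3l counts was -1.79, -1.64 and -1.90 in the controls and -1.27, -1.61 and -1.50 after IL-1β. It was higher by 0.32 (standard error 0.12) with no overlap, although control replicate 2 and IL-1β replicate 2 were nearly equal (two-sided exact permutation p = 0.1, and 3 libraries against 3 cannot give less). In the last 500 nt of the annotated Bnip3 transcripts, 15% of the 75-nt windows also occur in other annotated transcripts (Gm16439 and Gm6532), whereas 0 windows of the other 9 genes were shared. The handling of reads with several matches is not given in the sources used here, so the level of Bnip3 is less certain in that respect. Annotated genes on the opposite strand also overlap the 3′ ends of Adm (Gm28863), Bnip3 (Gm45507), Ndrg1 (Gm17035) and Ankrd37 (Ufsp2). Whether counting used the strand is not given in the sources used here, and without it reads from both genes of such a pair cannot be told apart.

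Of 16 tested mitophagy genes and their partners, 1 was higher and 1 lower. These are 12.5% called, near the 13.4% of all genes tested. Sqstm1, the autophagy cargo adaptor p62, was at 1994 ± 66.2 CPM in control and rose to 2333 ± 64.0 CPM (SD, n = 3 in each; log2 fold change 0.23, adjusted p = 0.00658 from edgeR), and Bcl2, the anti-apoptotic partner of BH3 proteins, fell by 1.24 on the log2 scale (adjusted p = 8.9e-04). Scaling by total counts turned this split into 0 higher and 4 lower, and upper-quartile scaling into 1 higher and 3 lower, while Bnip3 stayed called higher with both.

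**Figure D2:**
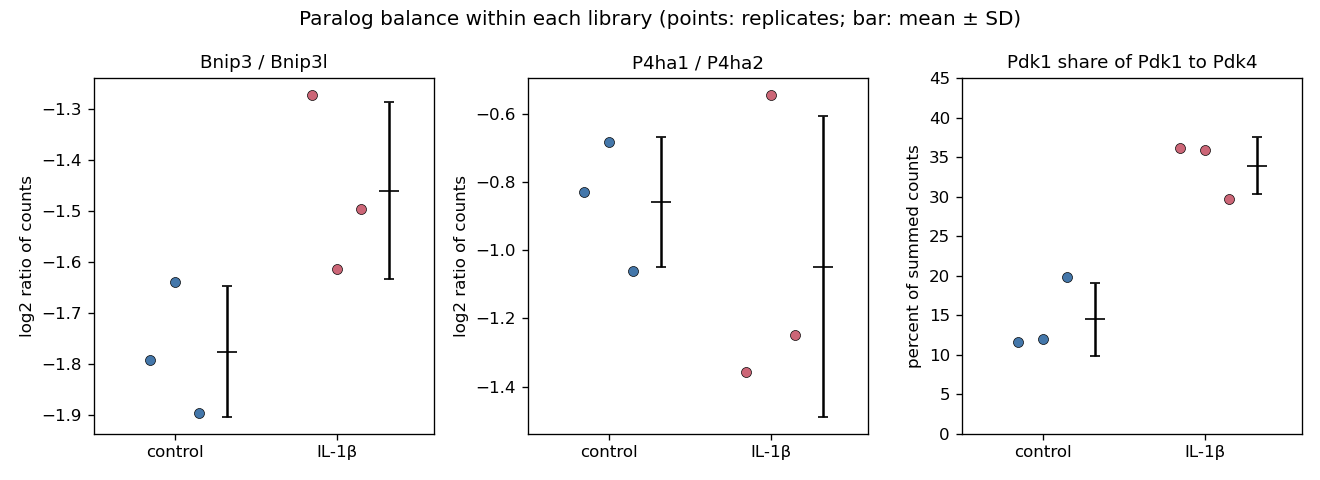
Paralog balance in each library, as the log2 ratio of raw counts for Bnip3 over Bnip3l (left) and P4ha1 over P4ha2 (middle), and as Pdk1 in percent of the summed counts of Pdk1 to Pdk4 (right), with points for the 3 libraries of each group and mean ± SD beside them. The Pdk1 share lies between 11.7% and 19.8% in control and between 29.7% and 36.2% in IL-1β libraries, whereas P4ha1 over P4ha2 overlaps.

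Ndrg1 encodes a stress-responsive cytoplasmic protein linked to differentiation and restrained growth, and lies on chromosome 15 from 66929318 to 66969641 on the minus strand. It was at 80.1, 86.2 and 82.1 CPM in the controls and at 149.6, 132.3 and 130.0 CPM after IL-1β. The controls lay close together and all treated libraries were well above them. The log2 fold change was 0.73 (standard error 0.079, adjusted p = 1.7e-07 from edgeR). Its relative Ndrg2 moved the other way, from 76.3 ± 10.02 to 58.2 ± 1.63 CPM (SD, n = 3 per group; log2 fold change -0.39, adjusted p = 0.00582 from edgeR), and lost its call without control replicate 2 (-0.27, adjusted p = 0.0783).

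Ddit4, also called REDD1, restrains the growth kinase mTORC1 and lies on chromosome 10 from 59949675 to 59951770 on the minus strand. It was at 13.7, 19.2 and 17.03 CPM in the controls and at 18.6, 22.6 and 17.1 CPM after IL-1β, so the groups overlapped. The log2 fold change of 0.22 had an interval from -0.10 to 0.54 (adjusted p = 0.443 from edgeR), which leaves room for a rise up to 1.46-fold. Of 13 tested genes of the mTORC1 brake and the NDRG family, 1 was higher and 1 lower (Ndrg2). This share of 15.4% was near the 13.4% called over all genes tested. The higher one was Sesn2, a stress-induced mTORC1 inhibitor, at 2.80 ± 0.67 CPM in control and 5.39 ± 1.02 CPM after IL-1β (SD, n = 3 per group; adjusted p = 0.0484 from edgeR), and its call was lost in 8 of 13 alternative fits, with adjusted p up to 0.205. Without control replicate 2, 0 genes of this list were called.

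Pdk1 encodes a kinase that inactivates pyruvate dehydrogenase and lies on chromosome 2 from 71873224 to 71903858. It was low, at 19, 24 and 26 counts in the controls and at 46, 42 and 33 counts after IL-1β. These are 1.79, 2.15 and 2.62 CPM against 4.92, 4.03 and 3.07 CPM, with no overlap. The log2 fold change of 0.87 (standard error 0.35, interval 0.14 to 1.6005) had an unadjusted p of 0.0216 and an adjusted p of 0.119 from edgeR, so it did not pass the threshold.

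The other PDK genes had lower values after IL-1β, except Pdk3, which was too low to be tested. Pdk2 fell from 9.59 ± 2.33 to 5.41 ± 0.70 CPM (SD, n = 3 per group; log2 fold change -0.83, adjusted p = 0.0181 from edgeR), and its adjusted p was 0.16 without control replicate 2 and 0.0985 without IL-1β replicate 2. Pdk4 differed by -0.94 on the log2 scale (edgeR adjusted p = 0.151). Pdk1 thus took 11.7%, 12.0% and 19.8% of the summed Pdk1 to Pdk4 counts in the controls and 36.2%, 35.9% and 29.7% after IL-1β. The share was higher by 19.4 percentage points (standard error 3.41), with no overlap (two-sided exact permutation p = 0.1, again the least possible). Of 9 tested genes of the pyruvate dehydrogenase complex and its regulators, 1 was lower (Pdk2) and 1 higher (22.2% called, against 13.4% of all genes tested). The higher one was Pdhx, a structural subunit of the complex, with a log2 fold change of 0.51 (adjusted p = 0.00119 from edgeR). Without control replicate 2 or without IL-1β replicate 2, 1 gene of this list was called.

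P4ha1 encodes the catalytic subunit of collagen prolyl 4-hydroxylase and lies on chromosome 10 from 59323296 to 59373304, 576 kb from Ddit4. It was at 9.77, 8.86 and 8.16 CPM in the controls and at 7.06, 11.5 and 6.69 CPM after IL-1β. One treated library, replicate 2, lay above all controls and the others lay below them. The log2 fold change of -0.083 had an interval from -0.55 to 0.38 (adjusted p = 0.889 from edgeR) and ranged from -0.38 to 0.066 with each library left out, so no direction can be given. The log2 ratio of P4ha1 to its paralog P4ha2 was -0.86 ± 0.19 in control and -1.05 ± 0.44 after IL-1β (SD, n = 3 per group; exact permutation test, two-sided p = 0.5).

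Kdm3a encodes a demethylase of histone H3 lysine 9 and lies on chromosome 6 from 71588970 to 71632917 on the minus strand. It was at 18.1, 20.7 and 19.3 CPM in the controls and at 22.2, 22.3 and 21.9 CPM after IL-1β. All treated libraries were above all controls, but the log2 fold change of 0.19 had an interval from -0.077 to 0.46 (adjusted p = 0.417 from edgeR). Of 7 tested collagen hydroxylase and KDM3 family genes, 0 were called by edgeR and 0 by DESeq2, with 2 lower and 0 higher at an unadjusted p below 0.05 in edgeR, and 1 was called lower without control replicate 1.

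Ankrd37 lies on chromosome 8 from 45996908 to 45999850 on the minus strand. It had 11, 9 and 2 counts in the controls and 6, 1 and 4 counts after IL-1β, so in 1 library of each group it was below the limit of 3 counts. A count of 11 has an exact Poisson interval from 5.49 to 19.7 and a count of 1 from 0.025 to 5.57, which cover counting error only. A difference between the groups was not detectable at this depth.

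**Figure D3:**
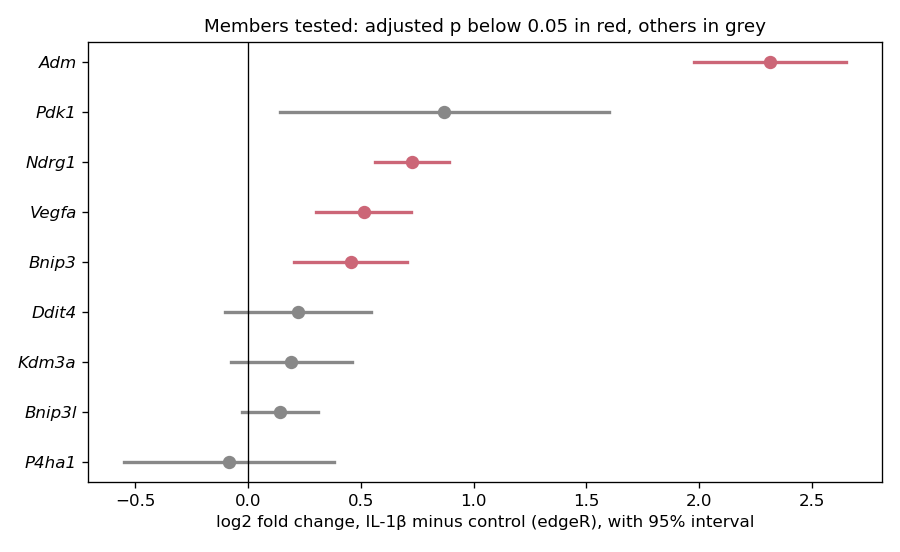
Log2 fold change (IL-1β minus control, horizontal axis) with its 95% interval from edgeR for the 9 genes tested, red where the adjusted p is below 0.05 and grey otherwise. Adm at 2.31 stands apart from the rest, and the wide interval of Pdk1 (0.14 to 1.6005) goes with its low counts.

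In 6 of the 9 genes tested, all treated libraries were above all controls, where 14% of all genes tested showed this and 28.2% lacked overlap in either direction. In the 4 genes called, in Pdk1 and in Kdm3a the groups did not overlap. The 10 genes summed to 280.1, 296.3 and 285.5 CPM in the controls and to 419.5, 411.2 and 403.9 CPM after IL-1β. Reads of this method come from the 3′ end of each transcript, so CPM was not divided by length to set genes beside each other. Ndrg1 (82.8 ± 3.09 CPM) and Bnip3l (81.5 ± 2.97 CPM; SD, n = 3) were the most abundant in control cells and did not differ beyond their spread, Vegfa came next, and Pdk1 and Ankrd37 were lowest. Of the rise of 124 CPM in the sum, Ndrg1 made up 43.8% and Adm 21.9%. Adm went from 2.39% to 8.27% of the sum.

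**Figure D4:**
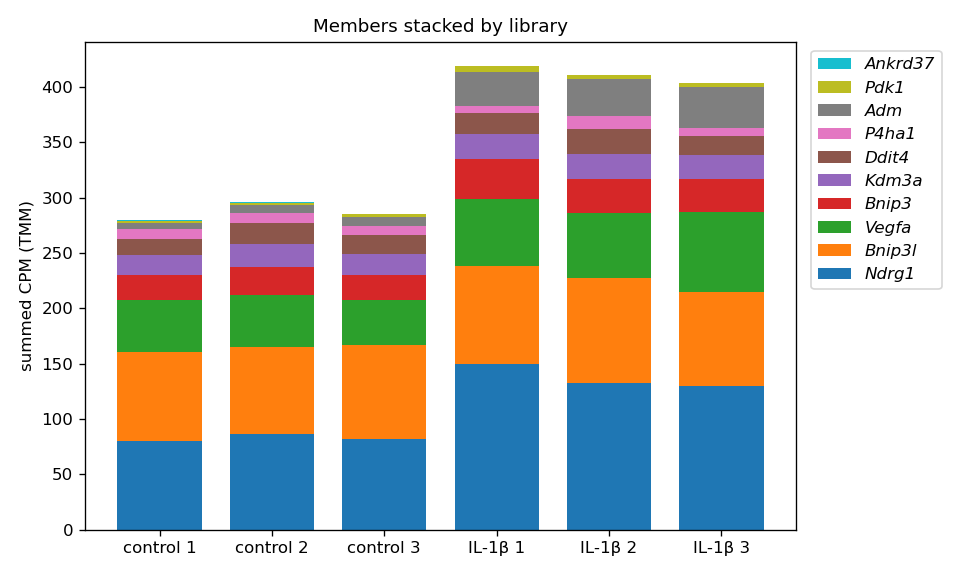
Levels of the 10 genes stacked in each library (summed CPM, axis from 0), ordered by their mean in control cells. The sum lies between 280.1 and 296.3 CPM in the controls and between 403.9 and 419.5 CPM after IL-1β, with Ndrg1 (blue) and Adm (grey) taking the largest parts of the difference.

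The genes of the HIF pathway itself were read from a list of 10 subunits and oxygen sensors, of which 4 of 9 tested were higher and 0 lower (5 and 0 at an unadjusted p below 0.05, 4 and 0 with DESeq2). This was 44.4% called, against 13.4% of all genes tested. Hif1a was at 68.2, 81.6 and 91.2 CPM in the controls and at 275, 277 and 257 CPM after IL-1β, with no overlap (1.75 on the log2 scale, standard error 0.086, edgeR adjusted p = 5.3e-14). Epas1, which encodes HIF2α, rose, from a control level of 40.4 ± 2.42 CPM to 81.1 ± 4.02 CPM (SD, n = 3 in each; log2 fold change 1.003, adjusted p = 7.3e-09 from edgeR). Egln3, a prolyl hydroxylase that is itself a HIF target, rose by 1.40 on the log2 scale (adjusted p = 4.5e-05 from edgeR). Arnt2 rose by 2.77 from 0.62 ± 0.50 CPM (SD, n = 3; adjusted p = 1.3e-04 from edgeR). It had 2, 13 and 5 counts in the controls and 37, 51 and 45 after IL-1β. Control replicate 1 was thus below the limit of 3 counts, and the size of the rise is uncertain. Arnt, the common partner, differed by 0.084 on the log2 scale (edgeR adjusted p = 0.789) and Vhl by 0.42 (adjusted p = 0.104, and 0.0338 without control replicate 1).

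Other HIF targets were read from a pair of lists. Of 15 tested glycolytic targets, 5 were higher and 0 lower (8 and 0 at an unadjusted p below 0.05, 5 and 0 with DESeq2), with a median log2 fold change of 0.28. Of these 15, 33.3% were called, against 13.4% of all genes tested. Pkm, pyruvate kinase, rose by 1.64, Pfkfb3, which makes the activator of phosphofructokinase, by 1.12, Slc2a1, a glucose transporter, by 0.60 and Aldoa, an aldolase, by 0.34 on the log2 scale. Of 30 tested non-glycolytic targets outside the 10, 8 were higher and 4 lower (40% called), with a median of 0.046. Without IL-1β replicate 2, 6 were called (5 higher, 1 lower). Edn1, the vasoconstrictor endothelin-1, rose by 1.45 and Tfrc, the transferrin receptor, by 0.65. Igfbp1, an insulin-like growth factor-binding protein, fell by 2.07 on the log2 scale, from 257 ± 32.4 to 61.3 ± 4.21 CPM (SD, n = 3 per group; edgeR adjusted p = 5.05e-15). Over all pathway and family lists, 21 distinct genes were higher and 9 lower of 107 tested (28% called, against 13.4% of all genes tested). This split became 14 and 14 when libraries were scaled by total counts. With that scaling 39.6% of all called genes were higher, against 52.0% with TMM.

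**Figure D5:**
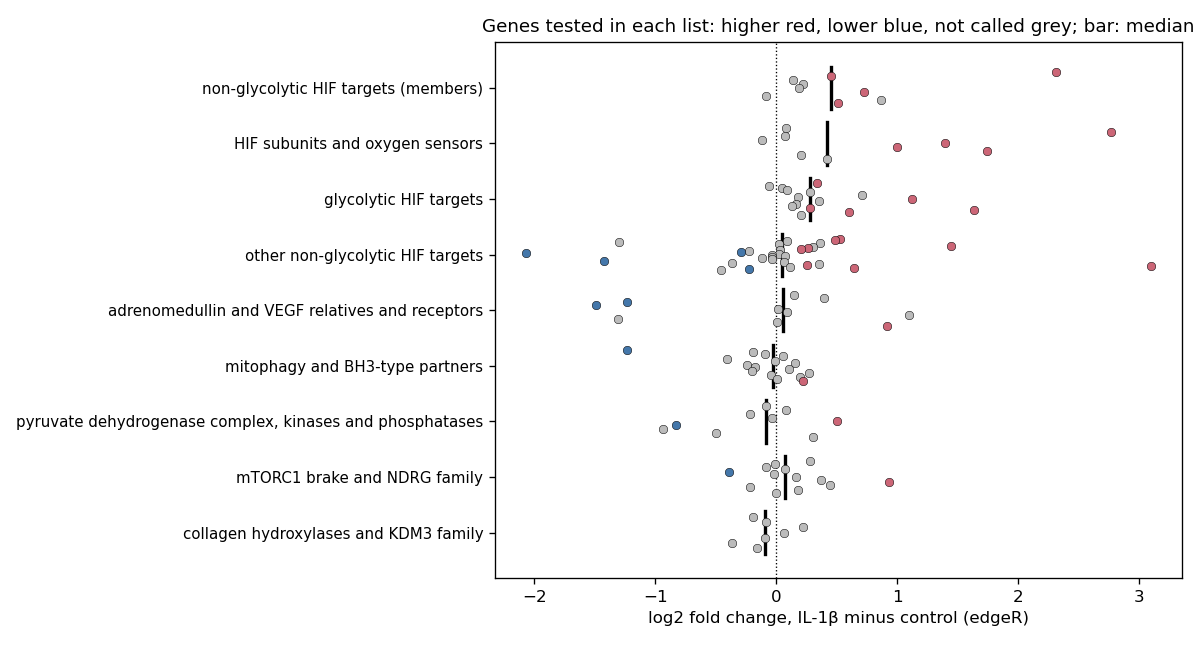
Log2 fold change (IL-1β minus control, horizontal axis) of every gene tested in the 10-gene set and in 8 lists of pathway and family genes, with red for genes called higher, blue for genes called lower, grey for genes not called and a bar at the median. The medians of the 10-gene set (0.46), the HIF subunits and sensors (0.42) and the glycolytic targets (0.28) lie to the right of 0, and the other medians lie near it.

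Because Adm and Vegfa are also made by non-parenchymal cells, their markers were read in the same libraries. Of 10 tested Kupffer cell and macrophage markers, 1 was higher (Cd14) and 0 lower (3 and 0 at an unadjusted p below 0.05, 1 and 0 with DESeq2). This was 10% called, near the 13.4% of all genes tested. The summed level of the list was 393 to 515 CPM in control and 917 to 985 CPM in IL-1β libraries. Cd14, which hepatocytes also express, made up that difference, since without it the sums were 214 to 241 and 216 to 246 CPM, a choice made after the values were seen. Of the 10 tested markers, 7 had a log2 fold change above 0, with a median of 0.38. Marco (log2 fold change 0.67, edgeR adjusted p = 0.141) and C1qa (0.75, adjusted p = 0.211) passed only at an unadjusted p below 0.05. The sums without Cd14 were mostly Cd68, so they say little about the other markers. Cd68 was at 192 ± 17.4 CPM in control and 184 ± 12.3 CPM after IL-1β (SD, n = 3 per group). Cd5l was at 19.9 ± 0.63 and 17.2 ± 1.36 CPM. The Kupffer cell marker Clec4f had 4, 27 and 7 counts in the controls and 6, 0 and 9 after IL-1β, too few to be tested. Timd4 had at most 1 count in a library.

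Of 9 tested endothelial markers, 1 was higher (Lyve1) and 3 lower (44.4% called, against 13.4% of all genes tested). The summed level of the list was 86.1 to 97.7 CPM in control and 81.8 to 89.2 CPM after IL-1β. The lower genes were Clec4g, a lectin of sinusoidal endothelium, from 5.80 ± 1.32 to 0.76 ± 0.50 CPM (log2 fold change -2.87, adjusted p = 1.9e-05), Kdr, from 4.55 ± 0.69 to 1.62 ± 0.35 CPM (-1.49, adjusted p = 0.00511), and Ptprb, a receptor phosphatase of endothelium, from 7.87 ± 1.63 to 4.08 ± 0.48 CPM (-0.95, adjusted p = 0.0135; SD, n = 3 per group, edgeR). Lyve1, a hyaluronan receptor, rose from 18.8 ± 2.85 to 25.8 ± 2.22 CPM (0.45, adjusted p = 0.0274), and lost its call in 6 of 13 alternative fits, with adjusted p up to 0.137. Without control replicate 3, IL-1β replicate 2 or IL-1β replicate 3, 2 genes of the list were called, both lower. Of 10 stellate cell and fibroblast markers 2 had enough counts to be tested, and 0 were called by edgeR, by DESeq2 or at an unadjusted p below 0.05, with sums of 21.3 to 24.99 and 22.0 to 27.9 CPM. Of 2 tested cholangiocyte markers, Spp1 was lower (log2 fold change -1.20, adjusted p = 4.4e-12 from edgeR) and Sox9 differed by 0.21 on the log2 scale (adjusted p = 0.0519), with sums of 316 to 329 and 236 to 240 CPM. The part of non-parenchymal cells in the levels of Adm and Vegfa was not tested.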

How the data were processed

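RNA from 6 libraries (3 per group) was sequenced by the authors with the QuantSeq 3′ mRNA-Seq kit as single-end 75-nt reads, which come from transcript 3′ ends. The authors aligned reads with Bowtie2 (mm10/GRCm38, version not given in the sources used here) and deposited raw counts per gene, and the counting tool is not given there. The table the authors deposited also holds their log2 normalized values and, from their own comparison, a fold change and a p-value. None of these was used.

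Groups came from the sample labels. Counts were filtered with filterByExpr, scaled by TMM and tested in edgeR 4.0.16 (R 4.3.3, limma 3.58.1) with the quasi-likelihood test and Benjamini-Hochberg adjustment over 11657 genes, with a threshold of 0.05. CPM values use TMM-scaled library sizes. Paralog ratios were compared by exact permutation tests (scipy 1.17.1, Python 3.11.15). Alternatives were DESeq2 1.42.0, other scalings and filters, a stricter threshold, a replicate block and omission of each library. The fit was tested on simulated data. Replicates of a group differed by more than sampling noise, so none was counted as a duplicate.

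The members and the gene lists were chosen with earlier results of these data known. Named genes were all members, up to 4 called genes per pathway or family list by adjusted p, 5 HIF pathway genes whatever their p, and up to 3 of the most abundant genes per marker list. One gene that this rule selects is not reported here. Calcrl, Ramp2, Ramp3, Vegfb, Pdk3, Pdk4 and P4ha2, relatives or receptors of members, were named after their values were seen. So were the markers Cps1, Ass1, Pck1, Marco, C1qa, Clec4f, Timd4, Clec4g and Ptprb. Promoter windows came from RefSeq (GRCm38.p6), and 3′ ends were checked in GENCODE M21.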

Additional observations from a re-analysis of the deposited data

How the results depend on the processing

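The same 4 genes (Adm, Vegfa, Bnip3, Ndrg1) were called in the other scalings, filters, DESeq2 and the replicate block, and with each library left out except IL-1β replicate 1. Without that library, and at a threshold of 0.01, 3 were called, Bnip3 being lost. At 0.01, 996 genes were called over all genes tested, against 1563, and 1131 to 1596 were called with each library left out. P4ha1 reversed within a range of -0.38 to 0.066 with each library left out, Fgb, a hepatocyte marker, within -0.11 to 0.017, and Eng, an endothelial marker, within -0.048 to 0.12. Eng was also at -0.013 with upper-quartile scaling and at -0.039 with total counts. The cause was not tested. Total-count scaling left Sqstm1 at an adjusted p of 0.052. The list of pathway and family genes had 21 to 33 calls with each library left out. Same-numbered libraries of the groups correlated at 0.075, 0.0275 and -0.005 in their deviations from the group means. Differently numbered libraries lay between -0.1121 and 0.0995. With 3 libraries per group this cannot show whether the libraries were paired, and the labels name no pairing. With the replicate block, 1671 genes (859 higher, 812 lower), 31 pathway and family genes and 4 members were called, and the Bnip3 to Bnip3l ratio and the Pdk1 share differed by 0.32 and 19.4 percentage points (exact permutation p = 0.25 for both, the smallest that 3 pairs can give). For P4ha1 to P4ha2 the paired difference was -0.19 (exact permutation p = 0.5). Depth limits Ankrd37 and Pdk1 most.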

Other observations

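Among the 9 members tested, IL-1β replicate 3 was the lowest treated library in 7 genes, with Adm and Vegfa as the exceptions, in which it was the highest. Control replicate 1 was the lowest control in 5 of the 9. Ndrg1, Bnip3l and Vegfa together made up 72.7% of the summed level of the 10 genes in control cells and 70.6% after IL-1β. Bnip3l went from 28.4% to 21.8% of the sum while its own level did not pass the test.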
